A study of Homo sapiens with 9 samples.

Results

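The genes described here encode the NF-kB transcription factor subunits and the proteins that hold them in check. They were chosen by symbol from 10 named genes, 5 of which had a row among the 14884 genes that could be named on the array: NFKB1, NFKB2, REL, RELA and RELB. The 5 inhibitor genes of the set, NFKBIA, NFKBIB, NFKBIE, NFKBIZ and TNFAIP3, have no named row in the tables used and were not analysed here, so the values below are those of the subunits. Total RNA came from MDA-MB-231, a mesenchymal human triple-negative breast cancer cell line, and was hybridised to Affymetrix Human Gene 2.0 ST arrays. The control group was 3 samples labelled with no agent and time 0, and the treated groups were 3 samples after 12 h and 3 after 24 h of 500 nM JQ1. JQ1 is an inhibitor of the BET bromodomain proteins, which read acetylated histones. No vehicle and no 12 h or 24 h control is given in the labels, so solvent, time in culture and JQ1 cannot be told apart, and both times are compared with the same 3 controls. Nothing in the labels says that the replicates were separate cultures, and the p-values then measure only the spread between these samples.

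NF-kB is a family of dimeric transcription factors that drives inflammatory, immune and survival genes. In resting cells IkB proteins keep the dimers in the cytoplasm; receptors such as the TNF receptor or Toll-like receptors activate IkB kinases, the IkB proteins are degraded and the dimers enter the nucleus. NFKB1 and NFKB2 encode the precursors p105 and p100, whose carboxy-terminal ends act as IkB proteins and which are processed to the DNA-binding subunits p50 and p52. RELA, REL and RELB carry the transactivation domains. Dimers of p50 with RELA or REL belong to the canonical branch, and p52 with RELB to the non-canonical branch, which the kinase NIK (MAP3K14) starts. Many triple-negative lines, MDA-MB-231 among them, are known for constitutive NF-kB activity.

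Markers of a mesenchymal breast line were measured for 5 of 6 genes, luminal and epithelial markers for 5 of 6 and leukocyte markers for 2 of 7. AXL lay between 11.50 and 12.02 over the 9 arrays (log2 array values), EGFR between 10.48 and 11.10, VIM between 10.23 and 10.69, CD44 between 7.15 and 8.11 and ZEB1 between 6.71 and 7.52. ESR1 lay between 4.81 and 5.17, PGR between 3.93 and 4.32 and FOXA1 between 4.70 and 5.16, while EPCAM (6.07 to 6.49) and GATA3 (6.37 to 6.98) had means above those of 52.3% and 59.4% of the genes tested. The leukocyte markers with a named row, CD14 and LYZ, did not exceed 4.57. Values were normalized between arrays, so a difference is measured against the bulk of genes and not in absolute amounts of RNA. Control 3 stood apart from its group. Controls 1 and 2 differed with an SD of 0.213 log2 across all rows, and control 3 differed from them with SDs of 0.385 and 0.389. Treated arrays differed from controls 1 and 2 with SDs of 0.376 to 0.413. Control 3 differed less from JQ1 12 h replicates 2 and 3 and JQ1 24 h replicate 2, with SDs of 0.314, 0.343 and 0.355. Its SDs from the other treated arrays were 0.388 to 0.404. The differences of the subunit genes from control are therefore given with all 9 arrays and without control 3. For the other genes values are from all 9 arrays unless stated. Where the fit without control 3 is not given, the 2 fits may still differ.

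NFKB1 was the subunit gene whose level separated all treated arrays from all controls. It stood at 8.94, 8.94 and 8.84 in controls 1, 2 and 3, at 8.36, 8.25 and 8.42 after 12 h, and at 8.30, 8.08 and 8.28 after 24 h. All 6 treated values were below the lowest control, and control 3 was with the other controls. The groups' means were 8.91 ± 0.061 in controls, 8.34 ± 0.087 at 12 h and 8.22 ± 0.12 at 24 h (SD, n = 3 arrays each). NFKB1 fell 1.48-fold at 12 h (log2 difference −0.56, SE 0.086, 95% interval −0.76 to −0.37, limma adjusted p = 0.0056) and 1.61-fold at 24 h (log2 difference −0.69, SE 0.086, interval −0.88 to −0.50, limma adjusted p = 0.0016). Without control 3 the differences were −0.60 and −0.73 (limma adjusted p = 0.0018 and 0.00059), and the call held whichever single array was left out, with adjusted p up to 0.029 at 12 h and 0.0099 at 24 h. In bulk RNA, fewer transcripts in every cell and a loss from some of the cells cannot be told apart.

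NFKB1 was the 1 of 5 subunit genes called at each time, against 4.39% of all genes tested called lower at 12 h and 6.34% at 24 h (limma, adjusted p under 0.05). Its groups were also the only ones of the 5 that did not overlap, which held in the lower direction for 10.9% of all genes at 12 h and 12.8% at 24 h. With all arrays the 5 log2 differences were below 0 at both times (REL at 24 h was 0.05 without JQ1 24 h replicate 3), with medians of −0.38 and −0.34, against medians of 0.01 over all genes tested at each time.

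**Figure D1:**
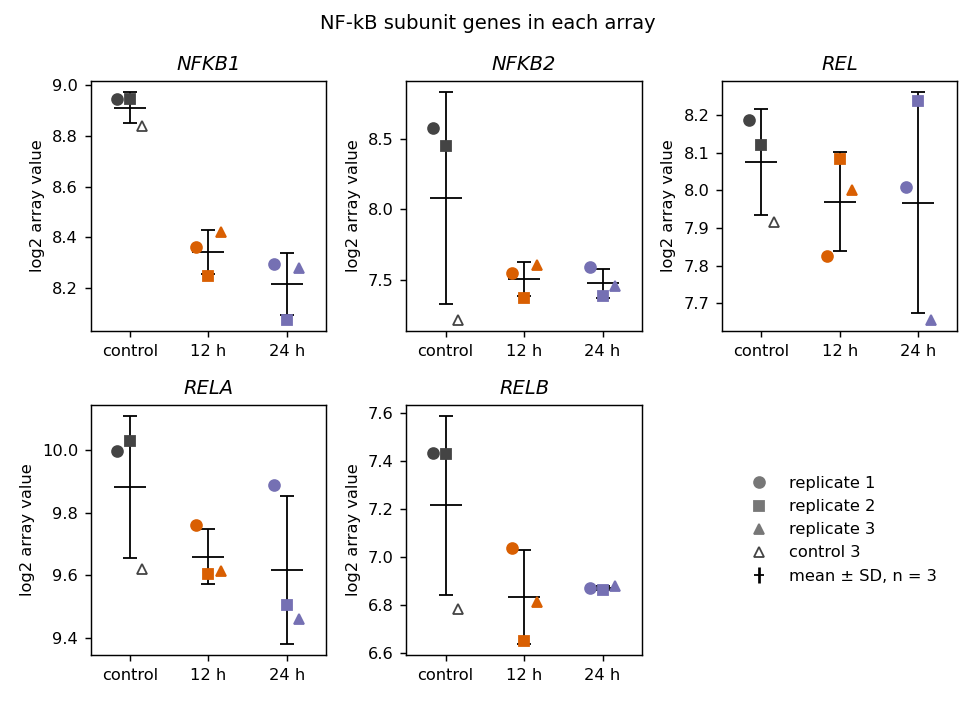
Log2 array value (vertical axis, a separate range for each gene) of the 5 NF-kB subunit genes in the 3 control, 3 JQ1 12 h and 3 JQ1 24 h arrays. Points are single arrays, the open triangle is control 3, and bars give the mean ± SD of 3 arrays. For NFKB1 all 6 treated arrays lie below the 3 controls; for NFKB2, RELA and RELB, controls 1 and 2 lie above every treated array and control 3 does not.

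NFKB2, the p100 precursor, was higher in controls 1 and 2 than in the other 7 arrays. It stood at 8.58 and 8.45 in them and at 7.21 in control 3, at 7.54, 7.37 and 7.60 after 12 h, and at 7.59, 7.38 and 7.45 after 24 h. Control 3 was thus below all 6 treated arrays, and the control SD of 0.75 was several times the SDs of 0.12 and 0.10 in the treated groups. With all arrays the log2 differences were −0.57 (SE 0.30, interval −1.25 to 0.10) at 12 h and −0.60 (SE 0.30, interval −1.28 to 0.07) at 24 h, and neither passed the limma test (adjusted p = 0.322 and 0.257). Without control 3 NFKB2 fell 2.01-fold at 12 h and 2.05-fold at 24 h (log2 −1.01 and −1.04, SE 0.10 each, limma adjusted p = 0.00015 and 0.00012), the largest differences of the 5 subunit genes in that fit.

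RELB, the partner of p52, had the same shape with a smaller range. It stood at 7.43 in both controls 1 and 2 and at 6.78 in control 3, at 7.04, 6.65 and 6.81 after 12 h, and at 6.87, 6.86 and 6.88 after 24 h. Controls 1 and 2 were above every treated array, and control 3 lay within the range of the 12 h arrays and below the 24 h arrays. With all arrays RELB was not called (log2 −0.38, SE 0.17, limma adjusted p = 0.241 at 12 h; −0.34, SE 0.17, limma adjusted p = 0.26 at 24 h). Without control 3 it fell 1.51-fold at 12 h and 1.47-fold at 24 h (log2 −0.60 and −0.56, SE 0.11 each, limma adjusted p = 0.0039 and 0.0053).

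RELA, which encodes p65, the main activating subunit of the canonical branch, differed less. Its values were 9.99, 10.03 and 9.62 in controls 1, 2 and 3, 9.76, 9.60 and 9.61 after 12 h, and 9.89, 9.50 and 9.46 after 24 h. Controls 1 and 2 were again the highest arrays, and control 3 lay among the treated ones. The log2 differences were −0.22 (interval −0.54 to 0.10, limma adjusted p = 0.448) at 12 h and −0.26 (interval −0.58 to 0.06, limma adjusted p = 0.305) at 24 h. Without control 3 they were −0.35 and −0.39, still not past the threshold (limma adjusted p = 0.09 and 0.057). The treated values then lay below the 2 remaining controls, but how many of all genes separate in this way was not counted.

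REL, which encodes c-Rel, the subunit best known from lymphocytes, showed no separation. It stood at 8.19, 8.12 and 7.92 in the controls, 7.82, 8.08 and 8.001 after 12 h, and 8.01, 8.24 and 7.66 after 24 h. Its highest and its lowest value were both in the 24 h group, and all 3 groups overlapped. Without control 3 the 12 h values lay below both controls and the 24 h values did not, again without a count over all genes. The log2 differences were −0.11 at each time (intervals −0.44 to 0.23 at 12 h and −0.44 to 0.22 at 24 h, limma adjusted p = 0.779 and 0.743), and −0.18 and −0.19 without control 3 (limma adjusted p = 0.527 and 0.504). These intervals leave room for changes of the size seen for RELA.

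Without control 3, then, 3 of the 5 subunit genes were called lower at each time (NFKB1, NFKB2 and RELB), against 10.5% of all genes at 12 h and 11.3% at 24 h in the same fit. The medians over the 5 were −0.60 and −0.56. The controls in that fit are 2 arrays that resemble each other, with a pair of values for each gene, so the control spread rests on them and on the spread pooled from the treated groups.

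**Figure D2:**
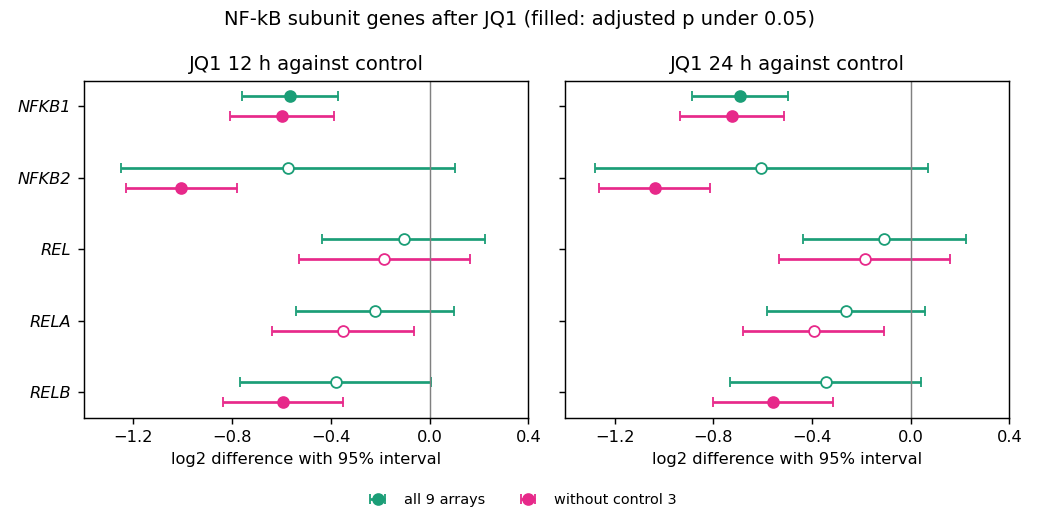
Log2 difference (horizontal axis) of each subunit gene from control after 12 h (left) and 24 h (right) of JQ1, with 95% intervals from limma, fitted to all 9 arrays or to 8 arrays without control 3. Filled points have an adjusted p under 0.05. NFKB1 is filled in every fit shown, NFKB2 and RELB only without control 3, REL and RELA in none.

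Between the treated groups 0 of the 5 subunit genes was called (limma, against 0.00672% of all genes), and 0 had an unadjusted p under 0.05. By that unadjusted measure 508 of all 14884 genes were lower and 487 higher at 24 h than at 12 h. The 24 h minus 12 h differences were −0.13 for NFKB1 (interval −0.32 to 0.07), −0.03 for NFKB2 (−0.71 to 0.64), 0.00 for REL (−0.33 to 0.33), −0.04 for RELA (−0.36 to 0.28) and 0.04 for RELB (−0.35 to 0.42). The order of NFKB1 levels was control, 12 h, 24 h, and the 12 h and 24 h values overlapped. Without control 3 the intervals for NFKB2 and RELB narrowed to −0.23 to 0.17 and −0.18 to 0.25.

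Several of the subunit genes, though not all, are themselves known NF-kB targets, and the circuit is known for feedback. In windows of 250 bases before to 50 bases after each annotated start (RefSeq, GRCh38.p14), 4 of the 5 measured subunit genes had an entry, and RELB had none. The motif searched was the kB consensus, which is GGG, a purine, a pair of any bases, a pair of pyrimidines and CC, on both strands. It was found for NFKB1, NFKB2 and REL and in neither window of RELA, that is, in 4 of 8 windows: 1 of 2 for NFKB1, 2 of 3 for NFKB2 and 1 of 1 for REL. The motif was found in 11.3% of all 35116 promoter windows and in 12.8% of the windows of genes tested on the array. Counted by gene, 3 of the 4 subunit genes held it, against 15.9% of the tested genes with a window. The 120 bases upstream of the start are printed for the windows with a match in that stretch, since these carry the letters that NF-kB dimers are known to read; capitals mark matches, and overlapping matches run together.
NFKB1, chr4:102501239-102501358, plus strand: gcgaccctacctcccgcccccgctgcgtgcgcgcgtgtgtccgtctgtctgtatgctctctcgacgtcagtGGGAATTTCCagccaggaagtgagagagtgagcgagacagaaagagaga
NFKB2 upstream start, chr10:102394458-102394577, plus strand: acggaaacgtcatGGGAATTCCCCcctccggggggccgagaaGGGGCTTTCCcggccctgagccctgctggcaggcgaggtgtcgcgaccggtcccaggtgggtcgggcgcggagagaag
NFKB2 downstream start, chr10:102395585-102395704, plus strand: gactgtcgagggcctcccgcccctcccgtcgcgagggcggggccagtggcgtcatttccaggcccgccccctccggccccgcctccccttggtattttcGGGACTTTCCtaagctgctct
REL, chr2:60881454-60881573, plus strand: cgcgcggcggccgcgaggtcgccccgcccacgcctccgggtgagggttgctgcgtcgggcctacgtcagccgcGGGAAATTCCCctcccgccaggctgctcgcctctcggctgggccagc
TNIP1, chr5:151081035-151081154, minus strand: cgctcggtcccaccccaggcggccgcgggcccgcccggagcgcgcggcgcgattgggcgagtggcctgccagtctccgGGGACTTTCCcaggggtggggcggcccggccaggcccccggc

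The match of NFKB1 begins 49 bases before its start, and that of REL, which was not called in any comparison, 47 bases before. NFKB2 has matches beginning 107, 106 and 78 bases before one start and 176 and 21 bases before the other, more than any other subunit gene. TNIP1, a partner of the A20 deubiquitinase that restrains the pathway, is shown as an example of a brake, and its match begins 42 bases before its start. Its array values had control 3 below controls 1 and 2, as those of NFKB2 and RELB did. Control 3 was below their mean for 39 of the 50 pathway genes with a named row, so this does not single out TNIP1. In some pathway genes control 3 lay further below the mean of controls 1 and 2 than for TNIP1, and these are named by that value. Of them CXCL3, CCL20 and CYLD hold a match. CXCL8, ICAM1, PTGS2, TRAF1, BCL2A1, RBCK1, SQSTM1 and TAX1BP1 hold none, and LIF, CSF1 and IER3 have no window here. A match describes letters and not occupancy: REL holds the motif with no call, RELB was called without control 3 and has no window here. Over the pathway genes with a named row, 17 of 62 windows hold it, or 27.4%.

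The rest of the pathway was followed through 4 lists of 82 genes, of which 50 had a named row: 17 for the IkB kinases and upstream signalling, 4 receptors, 10 further IkB proteins and brakes, and 19 target genes. At 12 h 0 of the 50 rose and 10 fell, and at 24 h 2 rose and 9 fell; of all genes tested, 4.39% were called lower and 3.54% higher at 12 h, and 6.34% lower and 5.17% higher at 24 h. Without control 3 the counts were 2 up and 19 down at 12 h, and 2 up and 21 down at 24 h; in that fit 10.5% of all genes were called lower and 9.57% higher at 12 h, and 11.3% lower and 9.61% higher at 24 h. Median log2 differences over the 50 were −0.08 and −0.07 with all arrays and −0.17 and −0.14 without control 3, against 0.01 over all genes tested in each case.

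Among the receptors, TLR3, the endosomal sensor of double-stranded RNA, fell most. It stood at 7.26, 7.40 and 7.48 in the controls, at 5.58, 5.13 and 5.96 after 12 h, and at 5.24, 4.85 and 5.10 after 24 h. The groups lay far apart, with control 3 the highest of all arrays. TLR3 fell 3.54-fold at 12 h (log2 −1.83, SE 0.19, limma adjusted p = 0.0014) and 4.99-fold at 24 h (log2 −2.32, SE 0.19, limma adjusted p = 0.00025). TLR4, the endotoxin receptor, fell 1.74-fold at 12 h (log2 −0.80, SE 0.12, limma adjusted p = 0.0055). At 24 h its log2 difference was −0.43 (limma adjusted p = 0.051), called without control 3 (−0.54, adjusted p = 0.0071) or without JQ1 12 h replicate 2 (adjusted p = 0.04). Of the 4 receptors 0 rose, 2 fell at 12 h and 1 at 24 h (medians −0.38 and −0.28), against 4.39% and 6.34% of all genes called lower; TLR2 and IL1RAP, a subunit of the interleukin 1 receptor, were not called.

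Upstream signalling moved in both directions. MAP3K14, the kinase NIK that triggers processing of p100 to p52, stood at 6.45, 6.47 and 6.68 in the controls, at 6.83, 6.85 and 6.85 after 12 h, and at 7.16, 7.06 and 7.22 after 24 h. The 3 groups did not overlap and stood in the order control, 12 h, 24 h, the opposite direction to NFKB1; such a separation upward was found for 11.3% of all genes at 12 h, 13.3% at 24 h and 5.76% between the times. At 24 h MAP3K14 rose 1.53-fold (log2 0.62, SE 0.08, limma adjusted p = 0.0024, against 5.17% of all genes called higher); at 12 h the log2 difference was 0.31 (limma adjusted p = 0.053, and 0.0062 without control 3), and the step from 12 h to 24 h was 0.30 (interval 0.11 to 0.49, limma adjusted p = 0.468).

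TRADD, the adaptor of the TNF receptor, rose 1.58-fold at 24 h (log2 0.66, SE 0.16, limma adjusted p = 0.027). Its values were 7.74, 7.65 and 7.52 in controls and 8.47, 7.91 and 8.50 at 24 h, and the call was lost without control 1, control 2 or JQ1 24 h replicate 1 or 3 (adjusted p up to 0.108). IRAK1, the kinase below Toll-like and interleukin 1 receptors, went the other way: 8.26, 8.15 and 8.33 in the controls, 7.81, 7.93 and 7.65 after 12 h, and 7.72, 7.78 and 7.64 after 24 h. It fell 1.37-fold at 12 h (log2 −0.45, SE 0.09, limma adjusted p = 0.019, lost without control 1 or JQ1 12 h replicate 1 or 3, up to 0.07) and 1.45-fold at 24 h (log2 −0.53, limma adjusted p = 0.007). BIRC2, the ubiquitin ligase cIAP1 that marks NIK for degradation, fell 1.35-fold at 12 h (log2 −0.43, SE 0.10, limma adjusted p = 0.034) and 1.44-fold at 24 h (log2 −0.53, limma adjusted p = 0.012). Its 12 h call was lost without control 1 or any single treated array (adjusted p up to 0.108); its 24 h call was kept, with adjusted p up to 0.049. Fitted to the compared groups only, TRADD at 24 h (limma adjusted p = 0.076), IRAK1 at 12 h (0.061) and BIRC2 at 12 h (0.099) were not called.

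Of the 17 upstream genes, 0 rose and 2 fell at 12 h, and 2 rose and 2 fell at 24 h (medians 0.05 and 0.05), against 4.39% of all genes called lower and 3.54% higher at 12 h, and 6.34% lower and 5.17% higher at 24 h. CHUK, the kinase IKK alpha, was not called (log2 0.27 at 12 h, limma adjusted p = 0.204; 0.05 at 24 h, 0.863). The other IkB kinase genes IKBKB and IKBKG have no named row and were not analysed here. Without control 3, 2 of the 17 rose at each time, against 9.57% and 9.61% of all genes. These were MAP3K14 with MAP3K7 at 12 h and MAP3K14 with TRADD at 24 h, and MAP3K7 is named after its values were seen. In the same fit 5 of the 17 fell at each time, against 10.5% and 11.3% of all genes. Beside BIRC2 and IRAK1 these were TAB2, RBCK1, a subunit of the linear ubiquitin ligase complex, and TRAF1, itself a classical NF-kB target; the last 3 are named after their values were seen. TRAF1 stood at 6.90 and 6.98 in controls 1 and 2, 5.01 in control 3 and between 4.91 and 5.70 in the treated arrays.

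The further IkB proteins and brakes showed 0 of 10 called at either time with all arrays (limma, medians −0.08 and −0.04). Of all genes tested, 4.39% were called lower and 3.54% higher at 12 h, and 6.34% and 5.17% at 24 h. An unadjusted limma p under 0.05 was found for 0 of the 10 at 12 h and 1 at 24 h. Of all 14884 genes, 1643 were lower and 1565 higher by that measure at 12 h, and 1913 and 1812 at 24 h. In this list control 3 was below the mean of controls 1 and 2 for 10 of 10 genes, against 51.3% of all genes tested. TNIP1 stood at 7.89 and 7.84 in controls 1 and 2, 7.10 in control 3, 7.40, 7.05 and 7.37 after 12 h and 7.52, 7.33 and 7.40 after 24 h. Its log2 differences were −0.34 and −0.19 (limma adjusted p = 0.387 and 0.627); without control 3 it fell at both times (−0.59 and −0.45, limma adjusted p = 0.0053 and 0.02). CYLD, a deubiquitinase that switches the pathway off, was the other gene of this list called lower at both times without control 3 (−0.53 and −0.63), and ITCH and PDLIM2 were called lower at 24 h in that fit; these 3 are named after their values were seen. BCL3, a nuclear IkB protein that binds p50 and p52, was not called (log2 −0.10 and −0.04, limma adjusted p = 0.747 and 0.904).

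Target genes had the largest differences. Of the 19, 0 rose and 6 fell at 12 h, and 0 rose and 6 fell at 24 h (medians −0.44 and −0.51), against 4.39% and 6.34% of all genes called lower. Without control 3, 10 of the 19 fell at each time, against 10.5% and 11.3%. LIF, a cytokine of the interleukin 6 family, stood at 10.05, 10.09 and 8.09 in the controls, 6.78, 6.24 and 7.05 after 12 h and 7.24, 6.84 and 7.17 after 24 h. All treated arrays were below control 3, which was itself well below the other controls. LIF fell 6.59-fold at 12 h (log2 −2.72, SE 0.48, limma adjusted p = 0.01) and 5.01-fold at 24 h (log2 −2.32, limma adjusted p = 0.015, lost without control 1, control 2 or JQ1 24 h replicate 2 or 3, up to 0.057). Fitted to the compared groups only, LIF was not called at either time (limma adjusted p = 0.053 and 0.057).

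BCL2A1, an anti-apoptotic BCL2 relative, stood at 9.30, 9.17 and 7.65 in the controls, 7.03, 6.999 and 7.24 after 12 h and 6.50, 6.12 and 6.01 after 24 h. The 3 groups did not overlap, as for 7.11% of all genes in the lower direction between the treated times. It fell 3.07-fold at 12 h (log2 −1.62, SE 0.37, limma adjusted p = 0.031, and up to 0.109 when any 1 array other than control 3 is removed) and 5.65-fold at 24 h (log2 −2.50, SE 0.37, limma adjusted p = 0.0037). Without control 3 its step from 12 h to 24 h was also called (log2 −0.88, SE 0.13, limma adjusted p = 0.046, against 0.739 with all arrays; 0.101% of all genes were called lower there). CCL20, a chemokine, stood at 5.89, 6.32 and 4.81 in the controls, between 4.31 and 4.52 after 12 h and between 3.89 and 4.18 after 24 h. It fell 2.42-fold at 12 h (log2 −1.27, limma adjusted p = 0.039, and up to 0.132 when any 1 array other than control 3 is removed, none of which keeps the call) and 3.14-fold at 24 h (log2 −1.65, SE 0.31, limma adjusted p = 0.011). Fitted to the compared groups only, CCL20 was not called at either time (limma adjusted p = 0.121 and 0.051), nor was BCL2A1 at 12 h (0.099). All treated CCL20 values lay below the lowest array median of 4.92, and those at 24 h below 4.49, the median of unnamed rows. Its fold changes may be limited by the low end of the scale, which was not tested.

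PTGS2, cyclooxygenase 2, had values of 11.05 and 11.09 for controls 1 and 2, 6.49 for control 3, and 5.31 to 5.97 over the treated arrays. At 12 h it was not called (log2 −3.71, limma adjusted p = 0.058). It fell at 24 h (log2 −4.03, SE 1.02, limma adjusted p = 0.034), and removing any 1 array other than control 3 ended that call (up to 0.118), as did fitting the compared groups only (0.112). Without control 3 PTGS2 was called lower at 12 h and 24 h (log2 −5.24 and −5.56, SE 0.12 each, limma adjusted p = 4.9e-08 and 2.8e-08). CXCL2, CSF1 and CD83 were the other targets that fell at 12 h, and CXCL2 and CD83 those at 24 h, named here outside the rule for named genes.

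CXCL8 and ICAM1, interleukin 8 and the leukocyte adhesion receptor, had controls 1 and 2 on one side and every other array on the other. ICAM1 stood at 9.12 and 9.20 in controls 1 and 2, 6.68 in control 3, 6.87, 5.92 and 6.71 after 12 h and 6.60, 5.93 and 6.30 after 24 h. With all arrays its log2 differences of −1.83 and −2.06 did not pass the test (SE 0.60 each, limma adjusted p = 0.104 and 0.058). Without control 3 ICAM1 fell 6.31-fold and 7.39-fold (limma adjusted p = 0.00016 and 0.0001). CXCL8 had values of 9.15 and 8.94 for controls 1 and 2, 5.17 for control 3 and 4.45 to 6.002 over the treated arrays, and was likewise called without control 3 and not with it (limma adjusted p = 0.00031 against 0.157 at 12 h). CCL2 lay between 3.07 and 3.31 and CXCL10 between 2.99 and 3.39 over the 9 arrays, near the lowest value of 2.01 in the table. Other targets not called, with or without control 3, had higher values: IER3, BCL2L1, SQSTM1 and IRF1 had control means of 10.95, 9.85, 8.12 and 6.44. With all arrays their log2 differences at 12 h and 24 h were −0.05 and 0.07, −0.08 and 0.12, 0.37 and 0.55, and 0.03 and 0.09. The genes from CCL2 to IRF1 are named after their values were seen.

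**Figure D3:**
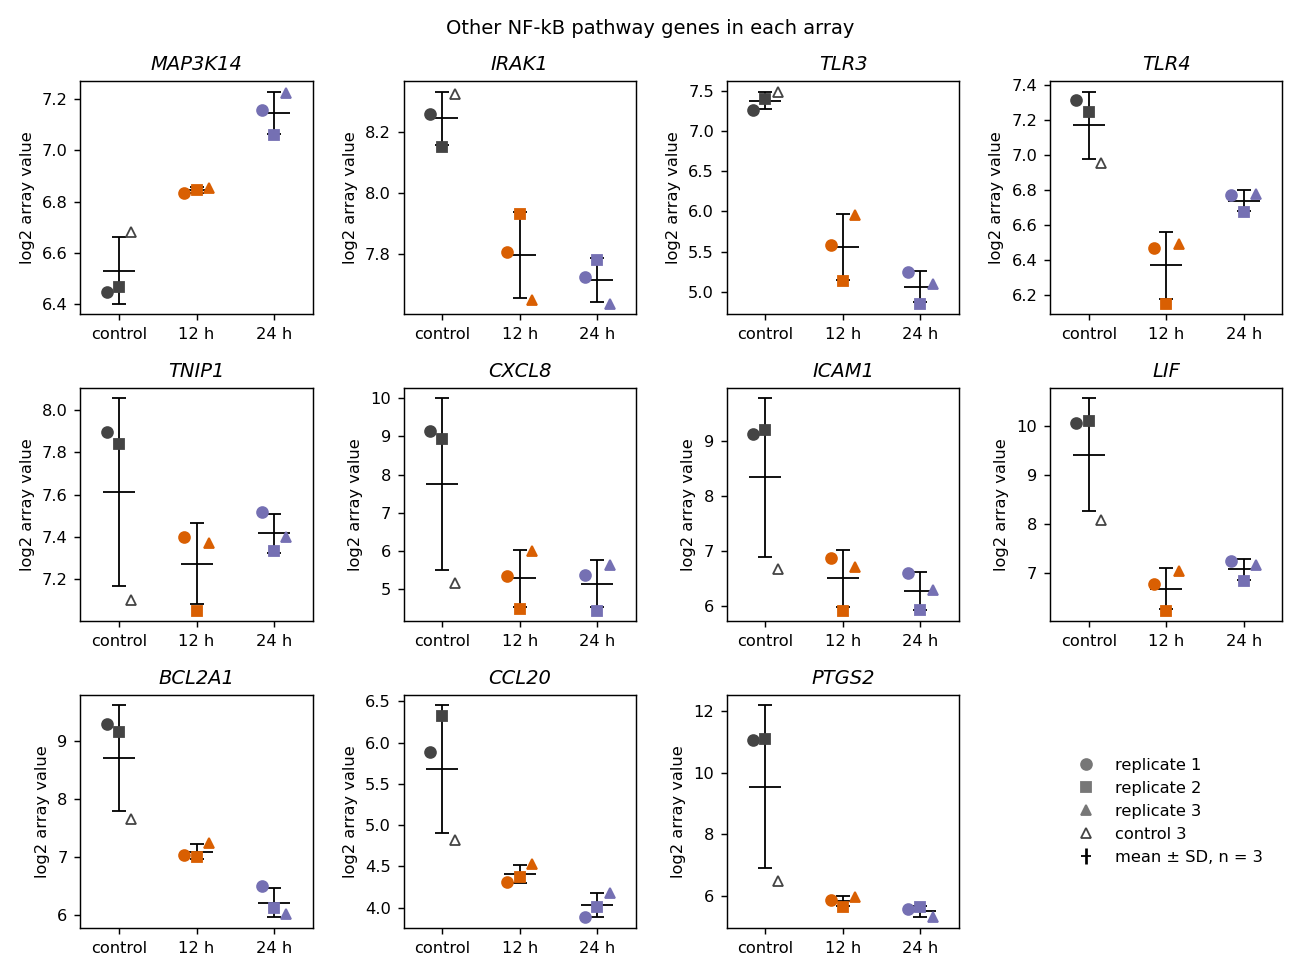
Log2 array value (vertical axis, a separate range for each gene) of 11 other pathway genes in the 9 arrays, drawn as for the subunits. MAP3K14 rises from control to 24 h without overlap between the groups, and TLR3 and IRAK1 keep control 3 with the other controls. For CXCL8, ICAM1 and TNIP1 control 3 (open triangle) lies among or below the treated arrays.

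Control 3 divided the subunit genes. Its value minus the mean of controls 1 and 2 was −0.11 for NFKB1 (−0.105), −0.24 for REL, −0.39 for RELA, −0.65 for RELB (−0.645) and −1.30 for NFKB2. For 4 of the 5, all but NFKB1, control 3 was nearer to the mean of the 6 treated arrays than to controls 1 and 2; this was so for 54.2% of all genes tested, for 15 of 19 targets, 10 of 10 brakes, 7 of 17 upstream genes and 1 of 4 receptors. NFKB1, TLR3, IRAK1 and BIRC2 are genes in which control 3 stayed with its group, and in NFKB2, RELB, TNIP1, ICAM1 and CXCL8 it did not. What sets control 3 apart was not tested, and the labels give it the same treatment as controls 1 and 2.

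**Figure D4:**
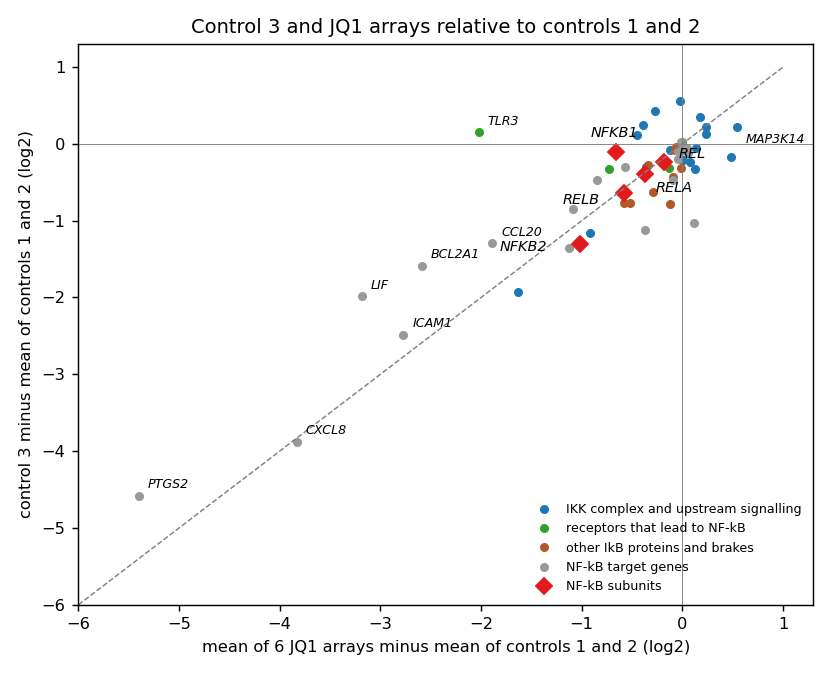
Each point is a gene; the horizontal axis is the mean of the 6 JQ1 arrays and the vertical axis control 3, both minus the mean of controls 1 and 2 (log2), so the axes share that mean; the dashed line marks equality. Diamonds are the 5 subunit genes: NFKB2, RELB, RELA and REL lie below the line, where control 3 is lower than the mean of the treated arrays (9.62 against 9.64 for RELA, 7.92 against 7.97 for REL), and NFKB1 lies near 0 on the vertical axis, as TLR3 does.

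The genes with the closest values were looked up for NFKB1, NFKB2 and RELB, and they differed between these subunits. By Pearson's r over the 9 arrays among all 14884 genes, a description that follows the group differences and control 3, the nearest to NFKB1 were GALNT3 (r = 0.995) and GALNT6 (0.985), enzymes that start mucin-type O-glycosylation, and SIPA1L1 (0.984), a GTPase-activating protein. GALNT3 was 7.91, 7.92 and 7.55 in the controls, between 6.10 and 6.38 at 12 h and between 5.64 and 6.12 at 24 h. Nearest to NFKB2 were the zinc finger genes ZNF217 (r = 0.991) and ZBTB10 (0.9899) and the sestrin SESN2 (0.9897), in all of which control 3 was the lowest array. Nearest to RELB were PYY (r = 0.987), LTBP4 (0.9865), which encodes a TGF-beta binding protein, and CPEB3 (0.976).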

How the data were processed

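Affymetrix Human Gene 2.0 ST arrays of 9 MDA-MB-231 samples were used, 3 in each of 3 groups taken from the labels. The authors deposited log2 values, already normalized between arrays; the log2 unit was read from the values (2.01 to 13.88; array medians 4.92 to 4.96). Transcriptome Analysis Console is named per the submitters' processing notes; its version, background correction and normalization method are not given in the sources used here. Of 53617 rows, 16098 had 1 gene symbol in the platform table, 0 had several and 37519 were unnamed here; the row of highest mean was kept for each of 14884 genes. A linear model on all 9 arrays with moderated statistics (limma 3.58.1, R 4.3.3) gave differences, standard errors, 95% intervals and Benjamini-Hochberg adjusted p over all genes, called under 0.05. The script was tested on simulated data. Named were the subunit genes, core pathway genes, and the largest called differences of each list; exceptions are marked in the text. The members and lists were chosen with earlier results of these data known. Alternatives left out each array, changed the filter, row choice, array weights and samples fitted, or added a replicate block. The number of arrays limits the precision.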

Additional observations from a re-analysis of the deposited data

How the results depend on the processing

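With all 9 arrays 1 of the 5 subunit genes was called at 12 h and 1 at 24 h. Leaving out single arrays gave 1 to 3 at each time, with 3 only without control 3, and array weights gave 4 at each time (NFKB1, NFKB2, RELA and RELB); that weighting gave control 3 a weight of 0.213. The other alternatives run gave 1. Over all genes the calls at 12 h, 1181 with all arrays, were 2986 without control 3, 543 to 606 without any other control or 12 h array, 696 over all rows, 577 with only the groups compared and 3498 with array weights. At 24 h, 1714 became 3111 without control 3, 1011 and 1034 without controls 1 and 2, 914 and 786 without JQ1 24 h replicates 1 and 3, 1121 over all rows, 994 with only the groups compared and 3764 with array weights. Between 24 h and 12 h, 1 gene became 22 without control 3, 5 and 2 without JQ1 24 h replicates 2 and 3, and 14 with array weights. Calls among the 50 pathway genes went from 10 to 21, 11 to 23 and 0 to 1 without control 3, an alternative chosen after seeing the data. The replicate numbers gave no clear sign of pairing in deviations from the group means. Of 9 same-numbered pairs, r ran from -0.316 to 0.224 with 2 over 0.1. Of the 9 arrays, 2 correlated best with their own number. With 3 arrays per group and control 3 apart, this check cannot exclude pairing. With the replicate block 1, 1 and 0 subunit genes were called, NFKB1 with limma adjusted p = 0.016 and 0.0065, and 967 and 1478 genes in all; CCL20 and BIRC2 at 12 h were then not called (0.062 and 0.054).

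The sign changed in 19 cases among the named genes, 0 of them called with all arrays or under the alternative (lowest limma adjusted p = 0.763). For 24 h against 12 h, leaving out single arrays gave NFKB2 -0.0991 to 0.0175, REL -0.1369 to 0.1537, RELA -0.1769 to 0.0367, RELB -0.0557 to 0.1385, BCL3 -0.0200 to 0.1879 and CXCL8 -0.5312 to 0.2231. For 24 h against control it gave REL -0.2420 to 0.0487, CHUK -0.0233 to 0.1223 and BCL3 -0.1315 to 0.0846. Array weights gave 0.0084 for NFKB2 and 0.1376 for CXCL8, and quantile normalization 0.0093 for REL, all for 24 h against 12 h. Testing all rows ended the calls of TRADD and PTGS2 at 24 h (0.061 and 0.08) and of BIRC2, BCL2A1 and CCL20 at 12 h (0.072, 0.075 and 0.089), and a robust trend that of BIRC2 at 12 h (0.053).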
